A study of Caenorhabditis elegans with 12 samples.

Results

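The C-type lectin genes of the nematode Caenorhabditis elegans were followed in whole larvae exposed to AO168=O, which forms when a phosphite antioxidant added to plastics is oxidised. The family was taken by name and type: every gene called clec- with a number and annotated as protein-coding, which gave 240 of the 46987 features in the count table, 19985 of them protein-coding. The 240 genes carry 237 distinct names, since clec-15, clec-209 and clec-249 each stand for a pair of gene identifiers. Poly(A) RNA was sequenced from wild-type N2 worms fed on Escherichia coli OP50 at 25 °C and collected at the L4 stage, the last larval stage, with about 1000 worms per sample. Exposure lasted about 46 h from the embryo, on agar holding no AO168=O (control), 400 ng/g, 2000 ng/g or 10000 ng/g, and all 4 groups received 0.01% ethanol. Each group held 3 libraries, given in the series as independent biological replicates, and the labels place all 12 in a single batch.

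C-type lectins are proteins built around a carbohydrate-recognition fold that in many animals binds sugars with the help of calcium. Nematodes have a greatly expanded family, most of whose members are predicted to be secreted, and many are made in the intestine, where the worm meets the bacteria it eats. Several are induced by bacterial infection and are used as readouts of the p38 MAP kinase cascade and of the DBL-1 TGF-beta pathway, and a few are needed for normal survival of infection. Other members are made in the germ line and reproductive tract, where their roles are less well known.

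Total counts ran from 36897811 to 47211800 per library, and 16665 genes passed the filter on low counts, 146 of the 240 members among them. Some of the libraries stood apart. Replicate 1 at 400 ng/g held 4 members at 2-fold or more above every other library and 6 members at 2-fold or more below every other library, replicate 2 at 400 ng/g held 2 members that far below, and replicate 1 at 2000 ng/g held 1 that far above. No control and no library at 10000 ng/g stood apart in this way. High values were counted from 5 CPM in the library itself, and low values in members with a mean of at least 5 CPM over the 12 libraries. Markers of the germ line and of adult structures also differed between groups, although none of them passed the test at any dose. The summed level of the 31 major sperm protein genes was 819 to 1839 CPM in the controls, 197 to 565 CPM at 400 ng/g, 395 to 984 CPM at 2000 ng/g and 323 to 655 CPM at 10000 ng/g. That of the 18 oocyte and eggshell markers was 629 to 909 CPM in the controls, 347 to 556 CPM at 400 ng/g, 425 to 825 CPM at 2000 ng/g and 361 to 491 CPM at 10000 ng/g. The sum of the 10 adult cuticle markers was 2889 to 5460 CPM in the controls, 1267 to 2279 CPM at 400 ng/g, 2222 to 4073 CPM at 2000 ng/g and 1731 to 2479 CPM at 10000 ng/g. No gene of these 3 lists was at 0 in all 12 libraries. The 6 yolk protein genes, made in adults, differed in sign from these lists at the lower doses. All 6 had positive log2 fold changes at 400 and 2000 ng/g over control, with medians of 0.91 and 0.80. At 10000 ng/g all 6 were negative, with a median of -2.08. Their sum was 76.1 to 290 CPM in the controls and 23.3 to 454 CPM at 400 ng/g. It was 139 to 488 CPM at 2000 ng/g and 20.1 to 102 CPM at 10000 ng/g, so each dose overlapped with the controls. The sum of the 15 intestine markers, none at 0 in any library, was 15680 to 18040 CPM in the controls, 12220 to 17900 CPM at 400 ng/g, 14960 to 15350 CPM at 2000 ng/g and 18220 to 19530 CPM at 10000 ng/g.

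Members were spread unevenly over the genome and over the range of expression. Chromosome V carried 86 members, IV 53, II 48, I 36, III 14 and X 3. The deposited gene descriptions listed a lectin C-type domain for 90 members, a CUB domain, a fold common in extracellular proteins, for 27, a PAN-like domain for 25 and a von Willebrand factor type A domain, a protein-binding fold, for 14. No domain was listed for 102 members. By mean FPKM over the 12 libraries, the deposited level per length of gene, 8 members lay above 100, 39 between 10 and 100, 51 between 1 and 10 and 142 below 1. The median was 3.13 FPKM over the 146 members tested and 8.24 FPKM over all genes tested. No count at all was recorded for 22 members, and the 94 that were not tested reached at most 51 counts in any library. Of the 25 members with a PAN-like domain, 1 was tested and 12 had no count in any library.

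The member with the highest level was clec-63 (WBGene00009394, chromosome II, 12895638 to 12897446, plus strand), with a von Willebrand factor type A domain. Its mean level of 2249 FPKM, between 1332 and 2534 in single libraries, ranked 70 among all features, and it held 45.8% of the counts of the family. The next members by FPKM were clec-50 at 490 (chromosome V, 19752399 to 19755368), clec-52 at 241 (chromosome IV, 8167164 to 8168760), clec-150 at 164 (chromosome III, 1002707 to 1006298) and clec-1 at 135 (chromosome V, 5700154 to 5701080), all 4 with a lectin C-type domain. The lowest value of clec-50 was 264.5 FPKM and the highest of clec-52 was 410.7, both in replicate 1 at 400 ng/g. Below them clec-65 (127 FPKM), clec-60 (106), clec-83 (103.5), clec-62 (73.8) and clec-72 (68.8) had ranges over libraries that overlapped from each to the next. Of these, clec-62, clec-63 and clec-65 are found within a single array on chromosome II, together with clec-64 and clec-66.

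**Figure D1:**
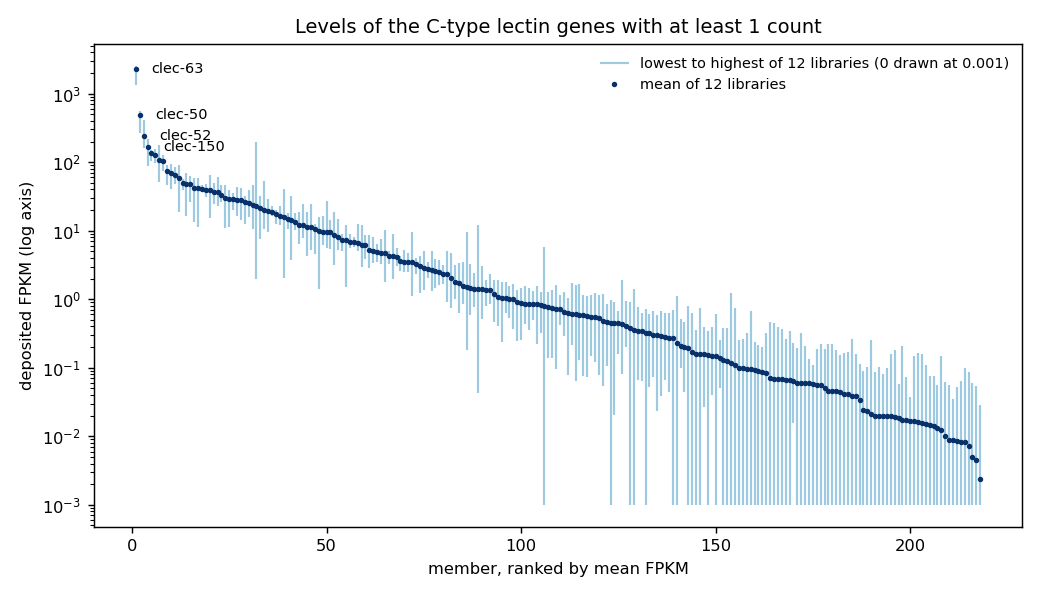
Deposited FPKM (log axis) of the C-type lectin genes with at least 1 count, ranked by their mean over 12 libraries (points), with a line from the lowest to the highest library. clec-63 stands at 2249 FPKM, clec-50 at 490, and 142 of the 240 members, those without a count included, have a mean below 1 FPKM.

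The family took a larger share of the counts at 10000 ng/g than in any other group. Its 240 members held 0.735%, 0.729% and 0.735% of all counts at 10000 ng/g, against 0.639%, 0.665% and 0.636% in the controls, and the libraries did not overlap. The shares were 0.580%, 0.600% and 0.629% at 2000 ng/g and 0.531%, 0.546% and 0.607% at 400 ng/g, each library below the lowest control. These are shares of total counts, without the TMM factors that scale the CPM. That factor was 0.849 in replicate 2 at 400 ng/g and 1.018 in control replicate 3. The place of this library at 400 ng/g below the controls therefore depends on the scaling. The single gene clec-63 gave 0.336% ± 0.0104 at 10000 ng/g, against 0.305% ± 0.0074 in the controls, and the other 239 members gave 0.397% ± 0.0138 at 10000 ng/g, against 0.342% ± 0.0095 in the controls (SD, n = 3 each). In CPM, with the TMM factors, clec-63 at 10000 ng/g overlapped with the controls. The intestine markers summed higher in each library at 10000 ng/g than in any control as well, but not gene by gene. Of the 15, 10 had a positive log2 fold change at 10000 ng/g over control and 5 a negative one. Their median was 0.06 at 10000 ng/g, 0.07 at 2000 ng/g and 0.08 at 400 ng/g, with none past the edgeR threshold. The part of the intestine markers in the share was not tested. In whole worms, a lower value can come from fewer cells of a type or from less RNA per cell, which cannot be told apart here.

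**Figure D2:**
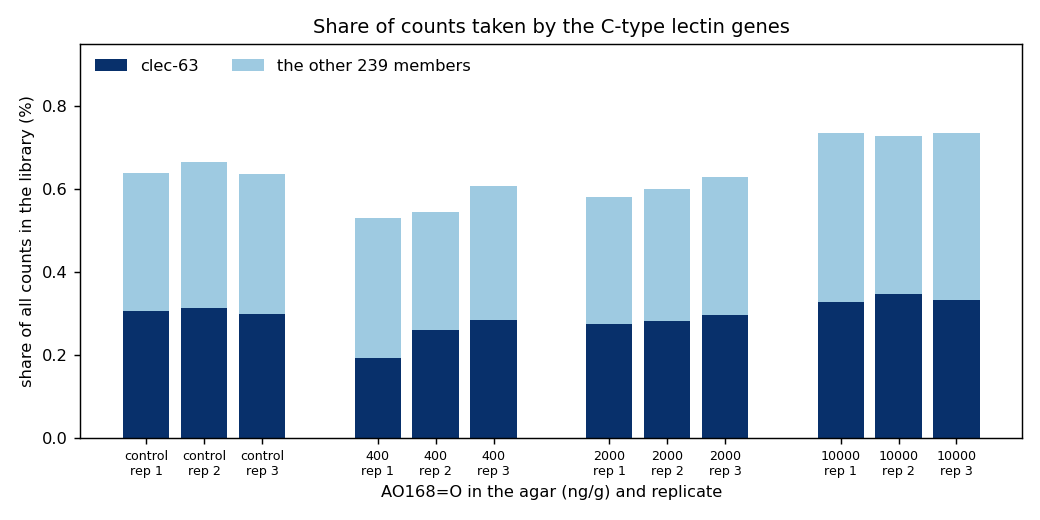
Share of all counts (percent) taken by the C-type lectin genes in each of the 12 libraries, divided into clec-63 (dark) and the other 239 members (light). The 3 libraries at 10000 ng/g lie between 0.729% and 0.735%, above the controls at 0.636% to 0.665%, and clec-63 is lowest in replicate 1 at 400 ng/g.

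Against control, clec-17 was the member that rose at 10000 ng/g. This gene (WBGene00008477, chromosome I, 12430028 to 12431500, minus strand, 4 exons) carries a CUB domain and a lectin C-type domain, and none of its exons overlaps another annotated gene. It had 79.6, 82.5 and 73.8 CPM at 10000 ng/g, against 38.9, 43.2 and 33.1 CPM in the controls, where CPM are counts scaled to the library size. Every library at 10000 ng/g lay far above every other library of the series, since the values were 38.03, 35.6 and 45.7 CPM at 400 ng/g and 30.3, 46.0 and 34.6 CPM at 2000 ng/g. The log2 fold change at 10000 ng/g over control was 1.03 ± 0.158 (SE), at an edgeR adjusted p of 0.0346. By the same test 0.21% of all genes rose and 0.042% fell at this dose, and of the 146 members 1 rose and 0 fell.

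The size of the change in clec-17 moved little between fits, but its place past the threshold of 0.05 needed all 6 libraries compared. The edgeR adjusted p was 0.101, 0.0862 and 0.155 without control replicate 1, 2 or 3, and 0.169, 0.149 and 0.0964 without replicate 1, 2 or 3 at 10000 ng/g, with log2 fold changes from 0.94 to 1.13. Without any one of the 6 other libraries the adjusted p was 0.0485 or less. At 2000 and 400 ng/g over control its log2 fold changes were -0.06 ± 0.157 (edgeR, adjusted p = 0.97) and 0.05 ± 0.157 (edgeR, adjusted p = 0.908). The difference between doses was tested directly: clec-17 was higher at 10000 than at 2000 ng/g by 1.09 ± 0.159 (log2 scale, edgeR, adjusted p = 0.0384) and higher than at 400 ng/g by 0.98 ± 0.158 (edgeR, adjusted p = 0.0479). These 2 calls were less firm. Among the 12 fits that each left out a library, the first held only without control replicate 3, replicate 1 or 2 at 400 ng/g or replicate 2 at 2000 ng/g, and an edgeR adjusted p of up to 0.305 was reached in the other 8. It was also lost with upper-quartile factors, at an edgeR adjusted p of 0.0623. Among the same fits, the second held only without control replicate 3, replicate 1 at 400 ng/g or replicate 2 at 2000 ng/g, with an edgeR adjusted p of up to 0.272 in the other 9. It was lost as well with RLE factors (edgeR, adjusted p = 0.0549), with upper-quartile factors (edgeR, adjusted p = 0.0626) and in a fit of only those groups (edgeR, adjusted p = 0.161).

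**Figure D3:**
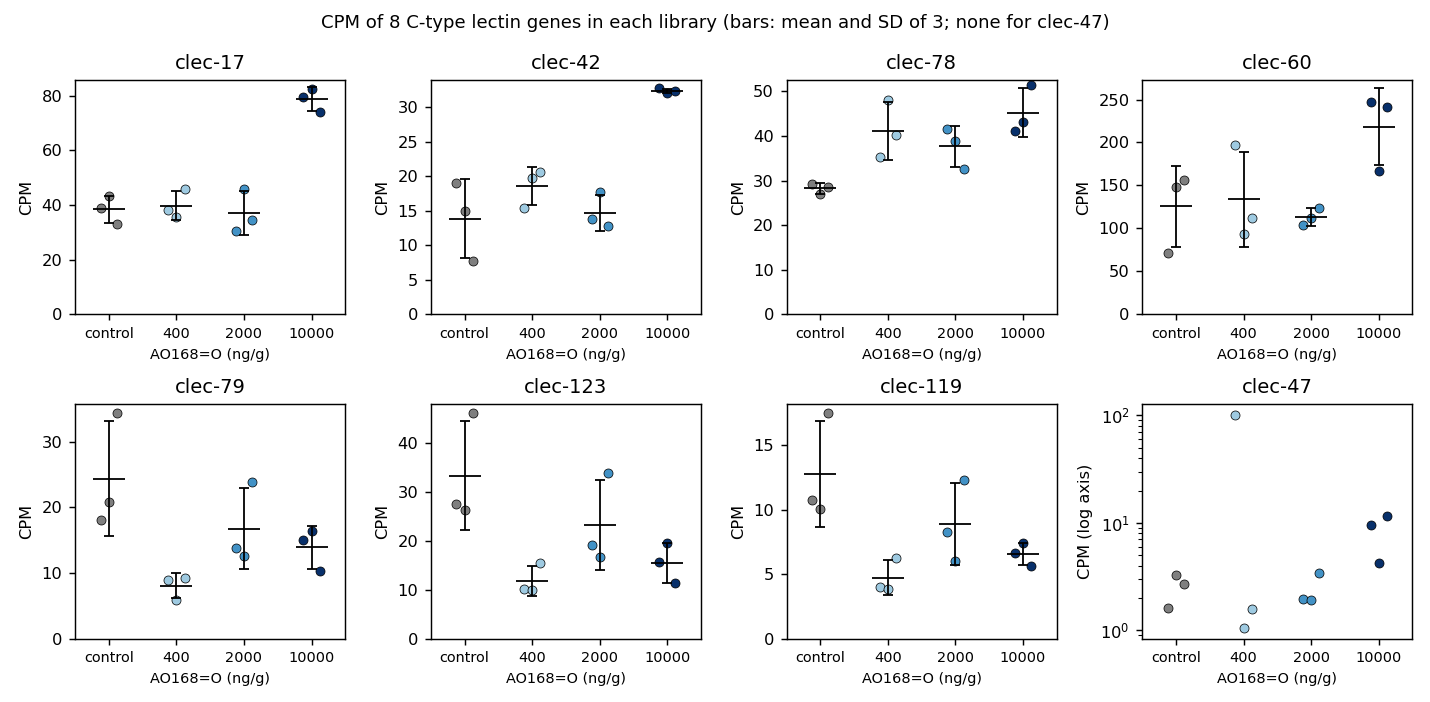
CPM of 8 C-type lectin genes in each library, from control to 10000 ng/g AO168=O (points), with the mean and SD of 3 libraries (bars, not drawn for clec-47, whose axis is logarithmic). clec-17 and clec-42 are above all other libraries at 10000 ng/g, clec-79, clec-123 and clec-119 are lowest at 400 ng/g, and clec-47 reaches 101.5 CPM in replicate 1 at 400 ng/g.

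Other members stood higher in all 3 libraries at 10000 ng/g without passing the adjusted test. The gene clec-42 (chromosome V, 18191412 to 18194168), with a CUB and a lectin C-type domain, had 32.7, 32.1 and 32.3 CPM at 10000 ng/g, against 19.01, 14.9 and 7.67 CPM in the controls. Its values were close together at this dose and above every library of the other 3 groups, with a log2 fold change of 1.22 ± 0.26 and an edgeR adjusted p of 0.081. The long gene clec-78 (chromosome IV, 3989102 to 4014235, 26 exons), whose description lists CUB, Sushi and HYR domains and no lectin domain, had 41.2, 43.2 and 51.4 CPM at 10000 ng/g, against 29.2, 26.9 and 28.6 CPM in the controls. The difference was 0.68 ± 0.136 on the log2 scale, at an edgeR adjusted p of 0.0679. In clec-60 (chromosome II, 10480043 to 10481874), a von Willebrand domain gene known as a marker of infection by Gram-positive bacteria, the values were 247, 167 and 242 CPM at 10000 ng/g, against 71.7, 148 and 156.5 CPM in the controls, a log2 fold change of 0.80 ± 0.31 at an edgeR adjusted p of 0.185. One exon of clec-60 overlaps another gene on the same strand, so its counts may be shared with it. Without replicate 1 at 400 ng/g, a library of neither group that enters the low-count filter, the scaling and the estimate of the spread, clec-42 and clec-78 came to edgeR adjusted p of 0.0324 and 0.0238.

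The largest positive fold changes among the members wholly above the controls, at a mean of at least 5 CPM over the 6 libraries compared, belonged to genes whose replicates scattered widely. The gene clec-47 (chromosome V, 15175759 to 15176324), just inside that limit at a mean of 5.48 CPM, had 9.46, 4.25 and 11.6 CPM at 10000 ng/g, against 1.605, 3.26 and 2.72 CPM in the controls, and the groups did not overlap. Its log2 fold change of 1.73 ± 1.24 had an edgeR adjusted p of 0.441, and 1 library at 400 ng/g reached 101.5 CPM. Without that library the adjusted p was 0.0431. For clec-70 (chromosome IV, 3932708 to 3936307) the values were 60.7, 25.1 and 51.4 CPM at 10000 ng/g, against 18.9, 17.02 and 21.4 CPM in the controls, with a log2 fold change of 1.26 ± 0.683 and an edgeR adjusted p of 0.31.

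Counted over the family, the libraries at 10000 ng/g lay wholly above the controls for 28 of 146 members, 19.2%, against 16% of all genes tested. They lay wholly below the controls for 18 members, 12.3%, against 18.3% of all genes. The median log2 fold change was 0.09 over the members tested and -0.01 over all genes tested, and 83 members had a positive value, 56.8% against 48.7% of all genes. At an unadjusted edgeR p under 0.05 there were 14 members higher, against a background of 9.35%, and 12 lower, against 11.2%. DESeq2 called 6 members higher, against 3.28% of all genes, and 5 lower, against 3.36%. Those higher were clec-17, clec-42, clec-78, clec-146, clec-37 and clec-12, and those lower were clec-123, clec-119, clec-117, clec-260 and clec-242; the names outside the rule for named genes were given after their values were seen.

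**Figure D4:**
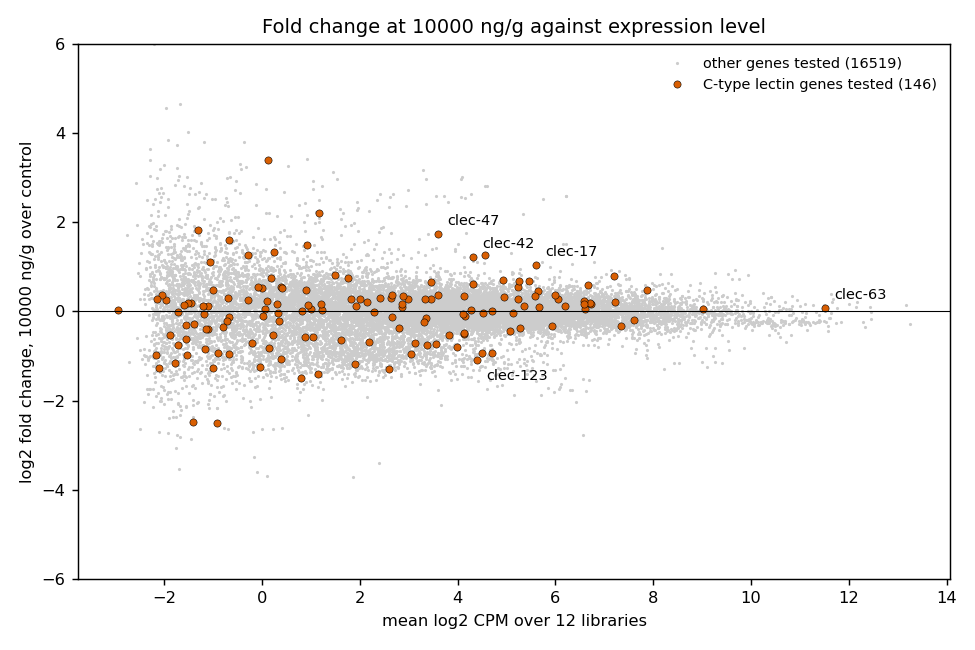
Log2 fold change at 10000 ng/g over control against mean log2 CPM over 12 libraries, for the 146 C-type lectin genes tested (orange) and the 16519 other genes tested (grey), with 4 genes outside the plotted range of -6 to 6. clec-17, at a log2 fold change of 1.03, is the member past the adjusted threshold, while clec-63, the member with the most counts, is near 0.

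Among members with a mean of at least 5 CPM over the 6 libraries compared, 6 had the most negative log2 fold changes of those wholly below the controls at 10000 ng/g. In clec-123 (chromosome II, 3114234 to 3116762) the values were 15.7, 19.5 and 11.4 CPM at 10000 ng/g, against 27.6, 26.2 and 46.0 CPM in the controls, a log2 fold change of -1.10 ± 0.313 at an edgeR adjusted p of 0.119. In clec-119 (chromosome II, 1255937 to 1258375) they were 6.61, 7.39 and 5.65 CPM at 10000 ng/g, against 10.7, 10.02 and 17.5 CPM in the controls. No library at 10000 ng/g reached the lowest control in either gene. The log2 fold changes of clec-87, clec-73, clec-79 and clec-88, which also did not overlap with the controls, were -0.93 ± 0.34, -0.93 ± 0.402, -0.81 ± 0.306 and -0.72 ± 0.256, with edgeR adjusted p from 0.162 to 0.221. Exons of clec-87 overlap iars-2 on the opposite strand and those of clec-88 overlap ctsa-4.1 on the same strand, so reads of these pairs may be mixed. Members below the limit had more negative values, also wholly below the controls. The log2 fold change was -2.51 ± 0.856 in clec-242, -1.50 ± 0.432 in clec-260, -1.41 ± 0.475 in clec-117 and -1.29 ± 0.628 in clec-86, which was just outside the limit at a mean of 4.78 CPM, with edgeR adjusted p from 0.12 to 0.268. These 4 were picked after their values were seen.

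At 400 ng/g clec-79, clec-123, clec-119, clec-73 and clec-87 had lower means than at 10000 ng/g, and again no member passed the adjusted test. The gene clec-79 (chromosome IV, 3973349 to 3975721) had 8.98, 5.84 and 9.26 CPM at 400 ng/g, against 18.1, 20.8 and 34.3 CPM in the controls. For clec-123 the values at 400 ng/g were 10.2, 9.86 and 15.3 CPM, and for clec-119 they were 3.98, 3.88 and 6.27 CPM, all below the control values given above. The log2 fold changes of these 3 genes were -1.60 ± 0.313, -1.49 ± 0.317 and -1.44 ± 0.30, each at an edgeR adjusted p of 0.0523. Next came clec-73, clec-151 and clec-87, with log2 fold changes of -1.39 ± 0.407, -1.31 ± 0.38 and -1.03 ± 0.34 and edgeR adjusted p of 0.0806, 0.0789 and 0.113. In each of these 6 members the highest of the 12 values was in control replicate 3 and the lowest in replicate 2 at 400 ng/g. Both libraries held many extremes over all genes tested. Of those genes, 19.8% were highest in control replicate 3 and 17.1% lowest in replicate 2 at 400 ng/g.

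The markers of sperm had their extremes in the same libraries. The 31 major sperm protein genes summed to 1839 CPM at most in the controls, in replicate 3, and to 197 CPM at least at 400 ng/g, in replicate 2. The 29 of them that were tested had median log2 fold changes of -1.84 at 400 ng/g, -0.94 at 2000 ng/g and -1.33 at 10000 ng/g, with all 29 negative at each dose and none past the edgeR threshold. DESeq2 called 28 of them lower at 400 ng/g and 18 at 10000 ng/g. Their part in the values of clec-79, clec-123, clec-119, clec-73, clec-151 and clec-87 was not tested.

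Higher than control in all 3 libraries at 400 ng/g were clec-78, clec-218 and clec-90 among members with a mean of at least 5 CPM over the 6 libraries compared. In clec-78 the values were 35.2, 48.0 and 40.1 CPM at 400 ng/g, against 29.2, 26.9 and 28.6 CPM in the controls, a log2 fold change of 0.54 ± 0.136 at an edgeR adjusted p of 0.0575. The differences in clec-218 and clec-90 were 0.50 ± 0.236 and 0.23 ± 0.119 on the log2 scale, with edgeR adjusted p of 0.29 and 0.343, and clec-90 shares exon sequence on the same strand with glo-2. Over the family, 7 members lay wholly above the controls, 4.79% against 8.19% of all genes, and 17 wholly below, 11.6% against 12.2%.

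The count of calls at 400 ng/g depended on single libraries and on the tool. With all libraries, edgeR called 0 members and 0% of all genes in either direction, and the unadjusted p was under 0.05 for 6 members higher, against 6.77% of all genes, and 16 lower, against 11.7%. DESeq2 called 1 member higher (clec-78), against 1.69% of all genes, and 12 lower, against 8.11%. Without replicate 3 at 400 ng/g edgeR called 8 members lower, 5.19% of those tested against 3.6% of all genes. Without replicate 3 at 2000 ng/g, a library of neither group, it called 6 lower, 3.87% against 4.82% of all genes, and 1 higher, 0.645% against 0.488%. The median log2 fold change was -0.0045 over the members and 0.05 over all genes tested.

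At 2000 ng/g no member and no gene (0%) passed the edgeR test. The unadjusted p was under 0.05 for 3 members higher and 3 lower, against 2.14% and 3.01% of all genes, and DESeq2 called 0 members, against 0.006% of all genes higher and 0.024% lower. The gene clec-78 was again wholly above the controls, with 41.5, 38.96 and 32.5 CPM at 2000 ng/g, against 29.2, 26.9 and 28.6 CPM in the controls, a log2 fold change of 0.41 ± 0.136 at an edgeR adjusted p of 0.855. In clec-218 the values were 10.6, 7.73 and 7.84 CPM at 2000 ng/g, against 4.93, 7.07 and 6.71 CPM in the controls. Among the abundant members clec-63 had 2792, 2813 and 2891 CPM at 2000 ng/g, against 3192, 3084 and 2927 CPM in the controls, and clec-50 had 475, 509 and 505 CPM at 2000 ng/g, against 567, 547 and 517 CPM in the controls. These groups did not overlap, yet the differences of -0.12 ± 0.179 and -0.13 ± 0.203 on the log2 scale were smaller than their SEs. The SEs come from a spread over all 12 libraries, not from these groups alone. In replicate 1 at 400 ng/g, a library of neither group, log2 CPM minus the control mean was -0.818 for clec-63 and -0.958 for clec-50. The gene clec-84 was also wholly below the controls, at -0.19 ± 0.0984 on the log2 scale. In all, 4 members lay wholly above the controls, 2.74% against 6.04% of all genes, and 7 wholly below, 4.79% against 5.47%, and the median log2 fold change was -0.15 over the members and -0.02 over all genes.

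Set against either lower dose, more members lay wholly higher than wholly lower at 10000 ng/g, and 1 passed the adjusted test. Relative to 2000 ng/g, 46 of 146 members lay wholly higher at 10000 ng/g, 31.5% against 15.4% of all genes, and 13 wholly lower, where 2129 of the 16665 genes were. The median log2 fold change was 0.18 over the members and -0.0049 over all genes. Relative to 400 ng/g, 22 members lay wholly higher, 15.1% against 6.71% of all genes, and 5 wholly lower, 3.42% against 6.32%, with a median of 0.09 over the members. Only clec-17 passed the adjusted edgeR test in these comparisons, where 0.048% and 0.096% of all genes were called higher and 0% lower. These shares come from comparisons that use the same 3 libraries at 10000 ng/g. The calls depended on the fit. With only the groups compared, edgeR called 24 members higher and 5 lower against 2000 ng/g. These were 17.9% and 3.73% of members, against 3.23% and 2.37% of all genes. Against 400 ng/g such a fit called 0 members and 0% of all genes.

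Between 2000 and 400 ng/g edgeR called 0 members and 0% of all genes, with 6 members higher and 11 lower at an unadjusted p under 0.05, against 5.09% and 4.16% of all genes, and DESeq2 called 0 members, against 0.036% of all genes in each direction. In this comparison 8 members lay wholly higher at 2000 ng/g, 5.48% against 4.69% of all genes, and 9 wholly lower, 6.16% against 6.26%. A test of any difference among the 4 groups called clec-17 alone of the members (edgeR, adjusted p = 0.0338, reaching 0.303 with a library left out and passing only without replicate 1 at 400 ng/g or replicate 2 at 2000 ng/g), against 0.084% of all genes, while DESeq2 called 21 members, against 10.3% of all genes. Over the order of the doses, clec-17 had a slope of 0.31 ± 0.08 on the log2 scale per step and an edgeR adjusted p of 0.187. With the dose in ng/g in place of its order the slope was 0.107 per 1000 ng/g and the edgeR adjusted p was 0.00336, in a test that called 0.276% of all genes higher and 0.018% lower and no other member. No member passed the trend test over the order of the doses, against 0.006% of all genes called higher and 0% lower. The unadjusted p was under 0.05 for 9 members with a positive slope and 3 with a negative one, against 6.42% and 5.89% of all genes, and DESeq2 called clec-17 alone, against 0.9% of all genes higher and 0.438% lower.

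None of the 10 members with the highest FPKM passed the test at 10000 ng/g over control. The gene clec-63 had 3160, 3325 and 3273 CPM at 10000 ng/g, against 3192, 3084 and 2927 CPM in the controls, a log2 fold change of 0.08 ± 0.179. For clec-50 the log2 fold change was 0.06 ± 0.203 and for clec-150 it was -0.20 ± 0.244, and both groups overlapped. In clec-65 the values were 171, 181.5 and 173 CPM at 10000 ng/g, against 148, 148 and 157 CPM in the controls, wholly higher by 0.22 ± 0.0996 on the log2 scale, at an edgeR adjusted p of 0.244. The same held for clec-83 and clec-62, at 0.24 ± 0.116 and 0.17 ± 0.13 on the log2 scale, and clec-83 overlaps Y54G2A.7 on the opposite strand. The values of clec-52, clec-1 and clec-72 overlapped with the controls.

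Members with a published part in worm defence differed in direction at 10000 ng/g over control. Of the 13 tested, 9 had a positive log2 fold change and 4 a negative one, where 48.7% of all genes were positive. Of the 4, clec-39, near 0, turned positive with upper-quartile factors. The intestinal genes clec-67 and clec-85, known targets of the p38 kinase PMK-1, had log2 fold changes at 10000 ng/g over control of 0.04 ± 0.223 and -0.34 ± 0.397. The gene clec-52, which like clec-60 is known to be induced by Staphylococcus aureus, had 314, 238.5 and 306 CPM at 10000 ng/g, against 177, 189 and 249 CPM in the controls, a log2 fold change of 0.48 ± 0.235 at an edgeR adjusted p of 0.269. For clec-39 and clec-49, both known to be needed for normal survival on Serratia marcescens, the log2 fold changes were -0.02 ± 0.812 and 0.32 ± 0.169. The level of clec-39 was 0.575 CPM at most, and its counts were 15, 8 and 14 at 10000 ng/g, against 2, 21 and 13 in the controls.

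The paralogues clec-41 and clec-42, linked to defence against Bacillus thuringiensis, went different ways in value. The gene clec-41 (chromosome V, 13134903 to 13138101) had 148.5, 142 and 133 CPM at 10000 ng/g, against 249, 179 and 101.5 CPM in the controls, inside the range of the controls, while clec-42 stood above its controls as given above. The other defence genes clec-4, clec-7 and clec-33 had log2 fold changes of 0.71 ± 0.433, 0.35 ± 0.341 and -0.54 ± 0.609, and clec-29 was too low to be tested, at 0.246 CPM at most. Of the 14 members of this list, clec-17 alone passed the adjusted test at 10000 ng/g, and 0 passed at 2000 or 400 ng/g. Over all genes 0.21% were called higher and 0.042% lower at 10000 ng/g, and 0% at 2000 or 400 ng/g. The call of clec-17 is the one given above for the whole family, and the list was chosen with earlier results known.

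The members were also counted by the domains listed for them, beside the shares over all genes at 10000 ng/g over control, which were 48.7% positive, 16% wholly above the controls and 18.3% wholly below. Of the 48 tested members with no listed domain, 17 had a positive log2 fold change at 10000 ng/g over control, with a median of -0.45. Among them 13 lay wholly below the controls and 2 wholly above. The 29 tested members that pair a lectin domain with another domain had 21 positive values and a median of 0.27, with 11 wholly above the controls and 1 wholly below. For the 50 tested members with a lectin domain alone these numbers were 30 positive and a median of 0.11, with 8 wholly above and 4 wholly below. For the 19 with another domain only they were 15 positive and a median of 0.22, with 7 wholly above and 0 wholly below. At 400 ng/g the members with no listed domain had a median of -0.39, with 13 wholly below the controls, as were 12.2% of all genes, and at 2000 ng/g a median of -0.44, with 2 wholly below, as were 5.47% of all genes. These members were also lower in level, with a median of 0.934 FPKM, and clec-79, clec-119, clec-123, clec-73 and clec-151 are among them. The difference between domain classes was not tested.

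**Figure D5:**
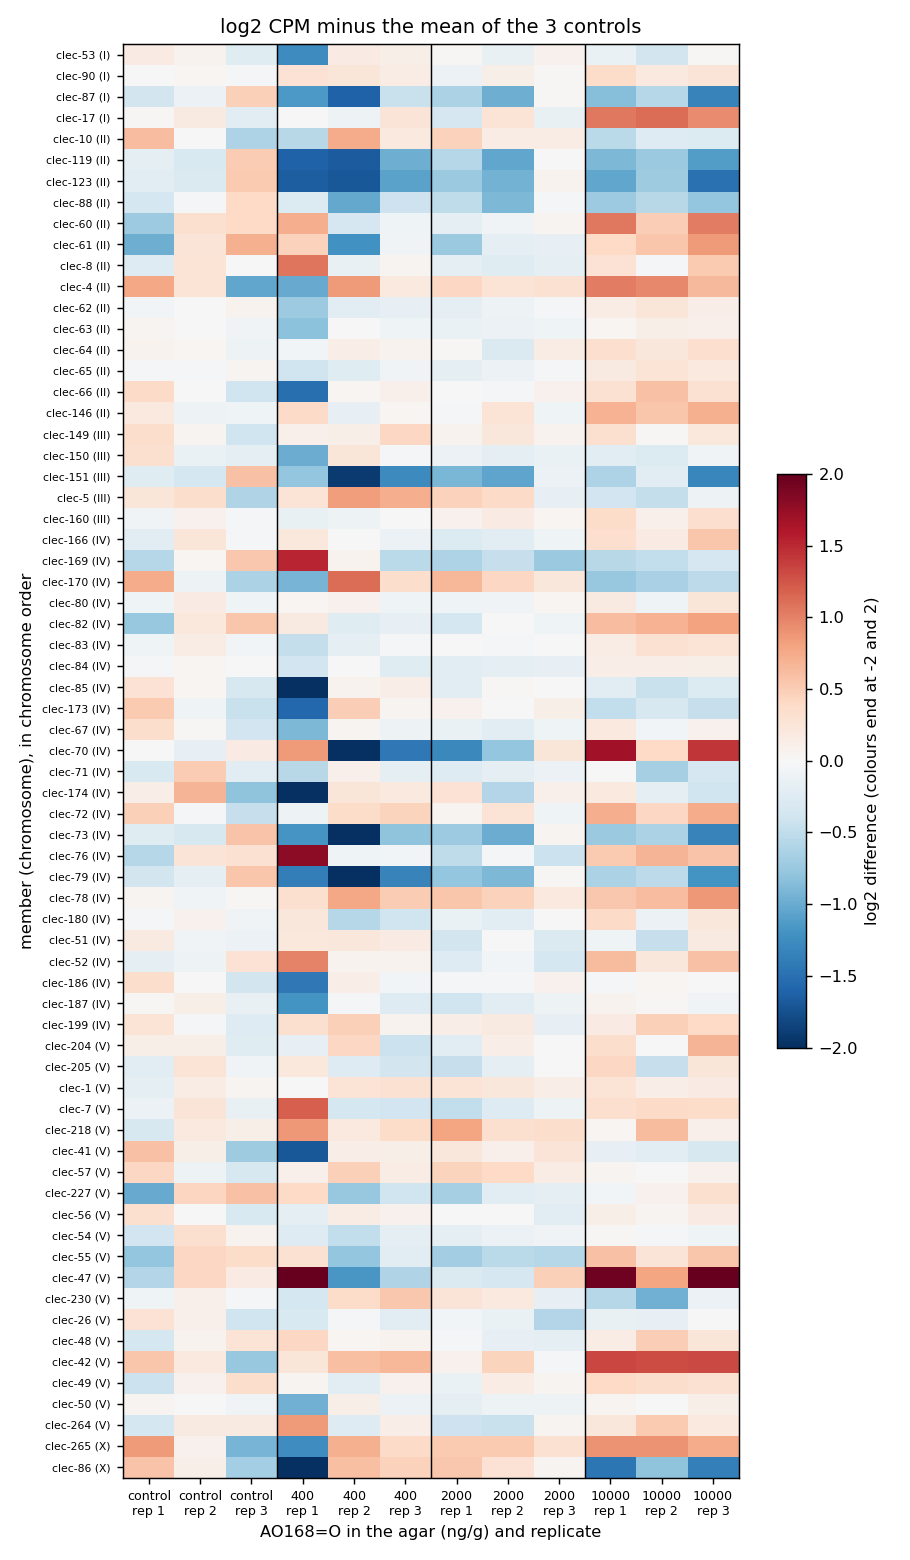
Log2 CPM minus the mean of the 3 controls for the 68 tested members with a mean of at least 5 CPM over 12 libraries, in chromosome order, with the 12 libraries from control to 10000 ng/g; red is higher, blue is lower and colours end at -2 and 2. clec-17 and clec-42 are red in all 3 libraries at 10000 ng/g, while replicate 1 at 400 ng/g differs in many members from replicates 2 and 3.

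Replicates of the family scattered more than those of all genes tested, with no match for level. The members tested had a median of 3.13 FPKM, against 8.24 FPKM over all genes tested. The median SD of log2 CPM within groups was 0.509 over the members tested and 0.263 over all genes tested. It was 0.443 in the controls, 0.564 at 400 ng/g, 0.317 at 2000 ng/g and 0.272 at 10000 ng/g for the members, against 0.229, 0.316, 0.181 and 0.152 for all genes. The steadiest members were clec-90 and clec-160, with SDs of 0.0872 and 0.0979, and the most variable were clec-2 and clec-209, with 2.31 and 1.97, the second being the identifier WBGene00018910.

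Values 2-fold or more beyond all other libraries were counted with a limit on level. High ones needed 5 CPM in the library itself, and low ones a mean of at least 5 CPM over 12 libraries. The matching share of all genes is not given. Of 13 such values among the members, 10 were in replicate 1 at 400 ng/g. Without that fold limit the library did not lead: it held the lowest value of 26 of the 146 members tested, 17.8% against 15.1% of all genes, and the highest of 23, 15.8% against 18.4%. In that library clec-47 had 101.5 CPM, clec-76 had 100.5, clec-3 had 13.8 and clec-2 had 7.45, each at least 2-fold above the other 11 libraries. The lowest values of clec-66 (21.4 CPM), clec-85 (16.4), clec-186 (13.6), clec-173 (6.18), clec-174 (2.09) and clec-86 (0.843) were also there, each 2-fold or more below the others. The intestine markers were lowest in this library too, with a sum of 12220 CPM, and their part in these values was not tested. The genes named in these 2 paragraphs for their scatter were chosen after their values were seen.

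Lists of other immune and sugar-binding genes gave a single call. Of the 11 genes of the DBL-1 TGF-beta pathway, daf-4, its type II receptor, rose at 10000 ng/g by 0.49 ± 0.0873 (log2 scale, edgeR, adjusted p = 0.0476), where 0.21% of all genes did, and the median over the list was 0.26. DESeq2 called 3 of the list higher. The edgeR call for daf-4 was lost without the low-count filter, at an adjusted p of 0.0738, and held in 2 of the 12 fits that each left out a library, those without replicate 1 at 400 ng/g or replicate 3 at 2000 ng/g. In the other 10 the edgeR adjusted p reached 0.236. None of the 11 genes of the p38 MAP kinase cascade passed the test at this dose, with 9 positive values and a median of 0.30, and DESeq2 called 3 of them higher as well, against 3.28% of all genes. Of 29 tested genes among 34 other secreted pathogen-response genes and of 12 galectin genes, the other family of sugar-binding proteins, 0 passed at any dose, with medians at 10000 ng/g of 0.02 and -0.02. The same held for 19 tested transcription factors of intestinal and immune genes, with a median of 0.12 at 10000 ng/g. At 2000 and 400 ng/g 0 genes of these lists passed.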

How the data were processed

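The authors deposited raw counts per gene together with FPKM values. The submitters' processing notes name HISAT2 2.2.1, CASAVA, DESeq2 1.42.0 and featureCounts 2.0.6. Their settings, the strand, how reads with several matches were treated and the assembly were not given in the sources used here. All 240 members had the coordinates of WBcel235 in Ensembl release 115, and domains come from the deposited gene descriptions. The library sizes implied by the deposited FPKM values were 0.866 to 1.11 times the total counts and were proportional to median-of-ratios size factors, so those factors, not total counts, scale the FPKM.

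Deposited counts were tested with edgeR 4.0.16 under R 4.3.3 by the two-sided quasi-likelihood test, after TMM scaling and the package's low-count filter, in a single fit of 12 libraries with a mean per group. Benjamini-Hochberg adjustment ran over 16665 genes, and the threshold was an adjusted p of 0.05. SEs were taken as the absolute log2 fold change over the root of F. CPM are counts scaled to the library size with TMM factors. For a single value, 3 libraries against 3 allow no exact p under 0.1. The steps were tested on simulated data.

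Members, gene lists and tests were chosen with earlier results of these data known. Named members are those past the threshold in any test, the 10 highest by FPKM, 14 with a published part in defence, and, per dose, up to 6 rises and 6 falls among members with a mean of at least 5 CPM over the 6 libraries compared whose exposed libraries all lay beyond the controls; from each other list up to 2 rising and 2 falling genes past the threshold were taken. As alternatives, 2 further scalings, a fit without the low-count filter, DESeq2, a replicate block, fits of only the groups compared, other dose terms and the omission of each library in turn were run, and, chosen after seeing the data, a fit without the libraries at 400 ng/g.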

Additional observations from a re-analysis of the deposited data

How the results depend on the processing

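The count of members called at 10000 ng/g over control, 1 higher and 0 lower in edgeR with TMM factors, was 2 higher with upper-quartile factors (1.37% of members against 0.282% of all genes), 2 higher without the low-count filter (0.917% against 0.141%), 6 higher and 5 lower in DESeq2 (4.11% and 3.42% against 3.28% and 3.36%), 3 higher and 1 lower in a fit of only the groups compared (2.19% and 0.73% against 1.52% and 1.15%), and 6 higher and 1 lower without the 3 libraries at 400 ng/g (4.26% and 0.709% against 2.36% and 1.34%). Leaving out each library in turn gave 0 to 5 higher and 0 to 1 lower, against up to 1.98% and 1.1% of all genes, with 5 without replicate 1 at 400 ng/g and 0 without any control or any library at 10000 ng/g. At 400 ng/g, with 0 called, there were 1 higher and 9 lower without the low-count filter (0.459% and 4.13% against 0.217% and 3.53%), 1 higher and 12 lower in DESeq2 (0.685% and 8.22% against 1.69% and 8.11%), and 0 to 1 higher and 0 to 8 lower with a library left out, against up to 0.488% and 4.82% of all genes. For 10000 against 2000 ng/g the 1 higher and 0 lower became 0 higher with upper-quartile factors, 3 higher in DESeq2 (2.05% against 0.66%), 24 higher and 5 lower in a fit of only those groups (17.9% and 3.73% against 3.23% and 2.37%), and 0 to 2 higher with a library left out, against up to 0.307%. For 10000 against 400 ng/g they became 0 higher with RLE or upper-quartile factors or only those groups, 4 higher and 1 lower in DESeq2 (2.74% and 0.685% against 0.714% and 0.258%), and 0 to 9 higher and 0 to 4 lower with a library left out, against up to 2.15% and 2.21%, 9 without replicate 1 at 400 ng/g. The test of any difference called 21 in DESeq2 (14.4% against 10.3%) and 0 to 3 with a library left out, against up to 1.09%, and the trend called 1 higher in DESeq2 (0.685% against 0.9%) and 1 with dose in ng/g (0.685% against 0.276%). The cause of these shifts was not tested. At 2000 ng/g over control, and for 2000 against 400 ng/g, no alternative called a member.

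Same-numbered libraries were not treated as pairs. Of 18 correlations of their deviations from group means, 5 were over 0.1, and they ran from -0.471 to 0.339. Those of differently numbered libraries ran from -0.50 to 0.49, so these values cannot show whether same-numbered libraries were handled together. With the number as a replicate block, 0 members were called higher at 10000 ng/g over control, over 2000 ng/g or over 400 ng/g and 0 for any difference, clec-17 at 1.04 having an adjusted p of 0.0712, and 3 were called lower at 400 ng/g over control, 2.05% against 3.29% of all genes.

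Medians with a library left out lay between 0.0569 and 0.114 at 10000 ng/g, between -0.181 and -0.116 at 2000 ng/g and between -0.0828 and 0.0273 at 400 ng/g, each over control. They lay between 0.168 and 0.221 for 10000 against 2000 ng/g, between 0.0811 and 0.263 for 10000 against 400 ng/g, between -0.0727 and -0.0095 for 2000 against 400 ng/g and between -0.0017 and 0.0302 for the trend. Signs turned with a library left out for genes near 0: clec-17 lay between -0.243 and 0.0687 at 2000 ng/g and between -0.0691 and 0.145 at 400 ng/g, and at 10000 ng/g clec-150 from -0.295 to 0.0019, clec-41 from -0.606 to 0.0289, clec-67 from -0.126 to 0.262 and clec-39 from -0.473 to 0.575, which was also 0.011 with upper-quartile factors. SEs at 10000 ng/g over control reached 1.82, in clec-2, and were 1.24 for clec-47 and 0.812 for clec-39. They rest on a spread estimated over all 12 libraries, not only the groups compared. An SE is not a limit of detection: the log2 fold change of clec-47 was larger than its SE and did not pass the threshold.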

Other observations

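Members lie in clusters along the chromosomes, and neighbours did not share a level or a direction throughout. With gaps of at most 10 kb between members, 19 arrays of 3 or more members hold 99 genes, 56 genes stand in pairs and 85 stand alone. In 4 of the arrays, with 17 members, no gene passed the low-count filter. The largest arrays are 13 members on chromosome V (16839121 to 16869840), 12 of them tested, with a median of 0.769 FPKM, and 11 members on chromosome IV (3922165 to 3975721), 10 of them tested, with a median of 11.6 FPKM. In the array on chromosome IV, 3 members, clec-70 among them, lay wholly above the controls at 10000 ng/g, and 2, clec-73 and clec-79, wholly below, where 16% of all genes tested lay wholly above and 18.3% wholly below. In the array on chromosome II that holds clec-63 (12893062 to 12906644) all 5 members had a positive log2 fold change at 10000 ng/g over control, with a median of 0.22, and 3 of them lay wholly above the controls, where 48.7% of all genes were positive and 16% wholly above. At 400 ng/g, 1 of these 5 was positive, with a median of -0.26, and at 2000 ng/g 0 were positive, with a median of -0.11.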
